A study of Mus musculus with 2 samples.

Results

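The transcripts described here are those of 7 genes whose proteins lead leukocytes across the vessel wall: *Sele* and *Selp*, which encode the selectins of endothelium, *Icam1*, *Icam2* and *Vcam1*, which encode immunoglobulin-family ligands of leukocyte integrins, *Pecam1*, which encodes a junctional receptor, and *Cd34*, which encodes a sialomucin. They were taken by symbol from the 31053 genes of the count matrices, and all 7 were found in both libraries. Lung cells of male C57/B6 mice aged 2 to 4 months had been captured by 10x Chromium, in which each transcript molecule carries a unique molecular identifier (UMI), after leukocytes and epithelial cells were depleted with beads against CD45 and CD326. There was 1 library from mice kept in normoxia (21% oxygen) and 1 from mice kept in hypoxia (10% oxygen for 3 weeks), with no transgene or deletion in either. Cells of the hypoxia arm came from 3 wild-type mice, and whether these were pooled, and how many mice gave the normoxia library, is not given in the sources used here.

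Leukocytes leave the blood in steps. Selectins on activated endothelium catch passing cells through sugar ligands and let them roll. P-selectin is stored in Weibel-Palade bodies, the secretory granules that also hold von Willebrand factor, while E-selectin has to be transcribed anew when cytokines act on the cell. The products of *Icam1* and *Vcam1* then bind leukocyte integrins and arrest the rolling cell, and both genes are well-known targets of NF-kB. *Icam2* is expressed by endothelium at rest, the *Pecam1* product lies at endothelial junctions and helps leukocytes pass between cells, and the *Cd34* product can present L-selectin ligands in lymph node vessels and marks endothelial and several stromal and progenitor cells.

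Of the 7 genes, *Sele*, *Selp* and *Cd34* lie on chromosome 1 of GRCm38 (mm10), at chr1:164048234-164057677, chr1:164115264-164150026 and chr1:194938819-194961279, all on the plus strand. The first pair are neighbours, with 57586 bp between them. *Icam1* lies at chr9:21015985-21028817 on the plus strand. The others are on the minus strand: *Vcam1* at chr3:116109949-116129688, *Icam2* at chr11:106377656-106388075 and *Pecam1* at chr11:106654217-106750628. A RefSeq promoter entry (GRCm38.p6) was matched for 4 of the 7 genes. These 4 are shown because an entry existed, and *Vcam1*, which was lower in the hypoxia library, had none. Of the 4, *Icam1* and *Selp* were lower in that library and *Cd34* was higher. *Sele* had only 10 UMIs in normoxia and 0 in hypoxia EC-like cells. Each line holds the bases upstream of the transcription start on the plus strand, 5′ to 3′, and capitals mark matches to a kB-type motif (GGNNNTTCC), an AP-1-type motif (TGANTCA) or a hypoxia-response core (ACGTG or GCGTG), searched on both strands; none of these matches overlaps a match to another motif.
Icam1, chr9:21015690-21015939: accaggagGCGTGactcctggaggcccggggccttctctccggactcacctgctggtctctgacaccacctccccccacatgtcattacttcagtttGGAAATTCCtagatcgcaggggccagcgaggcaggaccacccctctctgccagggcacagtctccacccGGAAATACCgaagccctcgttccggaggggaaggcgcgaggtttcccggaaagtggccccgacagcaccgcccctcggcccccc
Sele, chr1:164047984-164048233: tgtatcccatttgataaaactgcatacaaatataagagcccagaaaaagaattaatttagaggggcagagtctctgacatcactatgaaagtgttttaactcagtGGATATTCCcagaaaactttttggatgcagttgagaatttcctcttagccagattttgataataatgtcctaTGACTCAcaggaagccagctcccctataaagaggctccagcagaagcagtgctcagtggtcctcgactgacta
Selp, chr1:164115014-164115263: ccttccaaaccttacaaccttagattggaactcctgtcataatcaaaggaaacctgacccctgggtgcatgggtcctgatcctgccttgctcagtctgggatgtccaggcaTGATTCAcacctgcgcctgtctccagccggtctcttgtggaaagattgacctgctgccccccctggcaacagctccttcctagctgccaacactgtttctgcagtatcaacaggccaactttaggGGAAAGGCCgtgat
Cd34, chr1:194938571-194938818: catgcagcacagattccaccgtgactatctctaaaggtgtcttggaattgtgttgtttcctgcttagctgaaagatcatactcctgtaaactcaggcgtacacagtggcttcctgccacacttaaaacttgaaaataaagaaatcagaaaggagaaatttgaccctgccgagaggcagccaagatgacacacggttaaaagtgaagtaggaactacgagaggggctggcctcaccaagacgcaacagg

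The *Icam1* window held a kB-type match 153 to 145 bases before the start, which reads as a match on either strand, another on the minus strand 84 to 76 bases before it, and a GCGTG core 242 to 238 bases before it. The *Sele* window held a kB-type match 145 to 137 bases and an AP-1-type match 73 to 67 bases before the start. The *Selp* window held an AP-1-type match 139 to 133 bases before the start and a kB-type match on the minus strand 14 to 6 bases before it. The *Cd34* window held none of these letters. Among all 32851 RefSeq promoter windows of 250 bases, 15.7% held GGNNNTTCC, 6.75% TGANTCA, 16.6% ACGTG and 28.2% GCGTG, so that single matches are common.

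Between 200 and 4000 genes and no more than 5% mitochondrial UMIs were required of a cell, which kept 1348 normoxia and 689 hypoxia cells with median depths of 3453 and 2224 UMIs. Endothelial (EC)-like clusters, named from markers that exclude the 7 genes, held 957 normoxia and 616 hypoxia cells with 3671652 and 2106507 UMIs. Aerocyte-like EC (the large capillary cells marked by *Car4* and *Ednrb*) numbered 125 and 64, general capillary-like EC 533 and 192, arterial-like EC 28 and 17 and venous-like EC 56 and 21. The aerocyte-like cells lay in a deep cluster led by *Dpysl5* and *Ednrb* (93 and 38 cells, median 7036 UMIs) and a shallow one led by *Scgb1a1* (32 and 26 cells, median 1078 UMIs). The libraries stood apart within endothelium: 6 of 17 EC-like clusters had at least 90% of their cells from 1 library, and an *Ntrk2*-led EC-like cluster without a subtype name held 6 normoxia and 195 hypoxia cells. Its relative marker level was highest for the general capillary list (0.54, against 0.36 for the arterial list), short of the 1.5 times required for a name. The general capillary-like values of hypoxia leave these cells out. Their median depth was 4683 UMIs, against 1349 in the hypoxia cells named general capillary-like. Most general capillary-like cells of the normoxia library lay in clusters led by *Lpl* and *Hey1* (186 cells), by *Gm16486* (124) and by *Ier3* and *Socs3* (96), and most of those of the hypoxia library in clusters led by *Gm26870* and *Cdk19* (95) and by *Gm26917* (74). The 16 immediate-early genes, which cells also induce while a tissue is dissociated, summed to 23539.8 counts per 1000000 UMIs (CPM) in normoxia and 7837 in hypoxia EC-like cells. Of the 15 with at least 50 UMIs there, 14 were lower by over 1.5 times in hypoxia, against 9.76% of 8789 genes with as many. No barcode of a kept cell occurred in both libraries.

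Levels in CPM are the summed UMIs of a group per 1000000 UMIs of that group, compared only within a gene. Intervals are at 95% and cover counting error only. With 1 library per condition no test was possible, and a ratio of hypoxia over normoxia compares these libraries rather than the conditions.

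The transcripts were spread very unevenly over the endothelium. *Sele* and *Selp* were counted almost wholly in venous-like and arterial-like EC, and endothelial *Vcam1* mostly in venous-like EC. *Icam1* was highest in venous-like EC in the normoxia library, except in cells low in immediate-early transcripts, and in aerocyte-like EC in the hypoxia library. *Icam2* and *Cd34* were highest in aerocyte-like EC in both libraries. *Pecam1* was the most even, between 1123 and 1655 CPM over the 4 subtypes in normoxia.

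**Figure D1:**
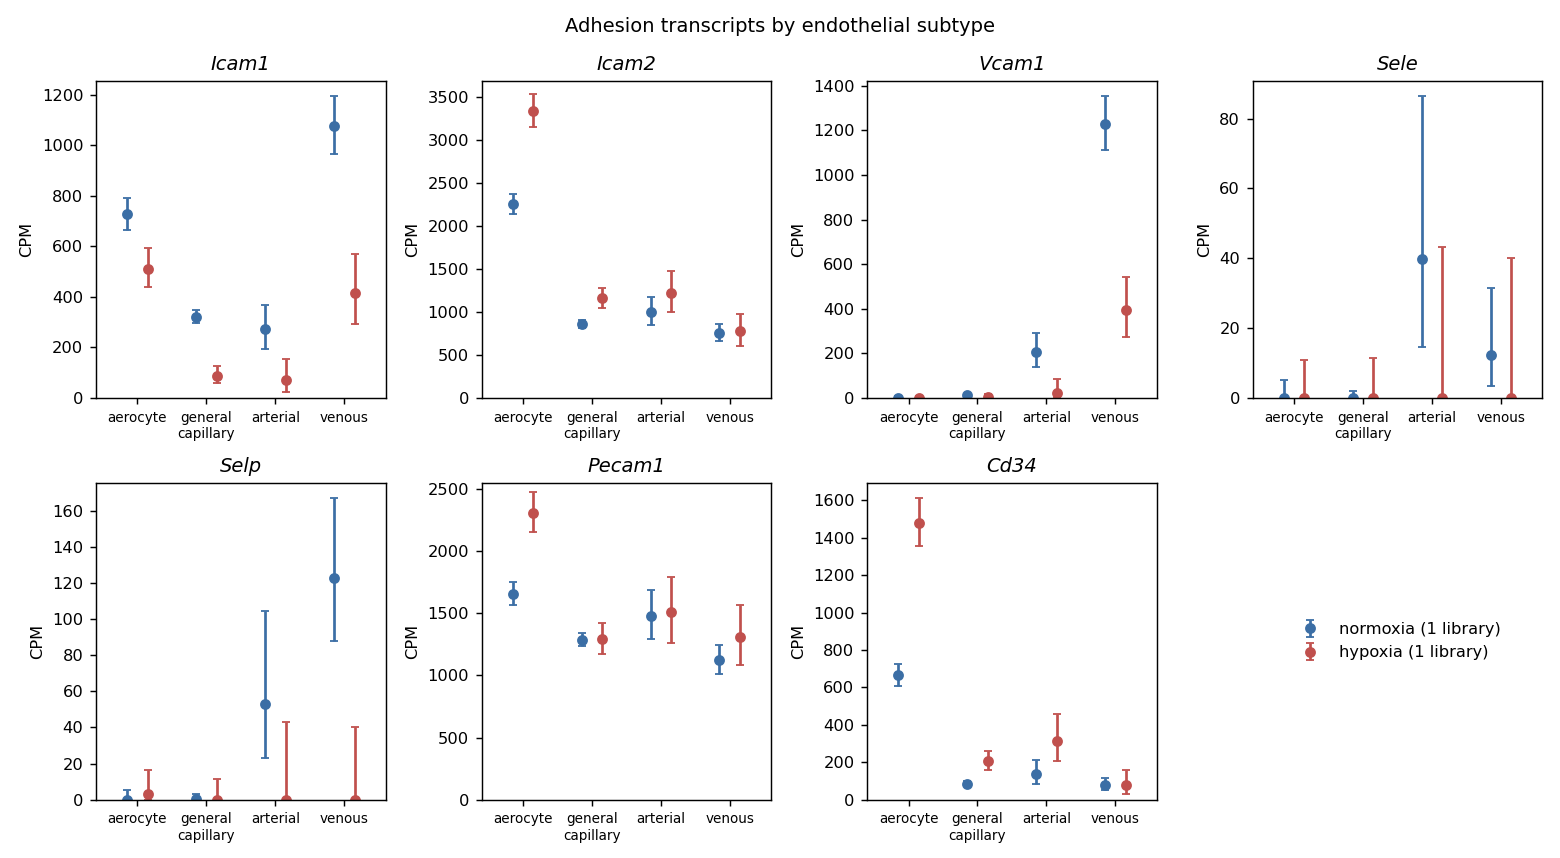
CPM of each adhesion transcript in the 4 named endothelial subtypes, for the normoxia library (blue) and the hypoxia library (red), 1 library each; bars are 95% Poisson intervals. *Vcam1* stood at 1227 in venous-like EC of normoxia and at 11.7 in general capillary-like EC, and *Cd34* at 665 in aerocyte-like EC of normoxia and 1480 in those of hypoxia.

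Of the 7 genes, 6 had at least 50 UMIs in EC-like cells over both libraries. In the hypoxia library 3 of these 6 (*Icam1*, *Vcam1* and *Selp*) were lower by over 1.5 times, against 9.76% of all 8789 genes with as many UMIs. Only *Cd34* was higher by over 1.5 times, against 7.92% of genes, and *Icam2* and *Pecam1* lay between, although *Icam2* reached 1.52 when cells with up to 6000 detected genes were kept. The median ratio over the 6 genes was 0.73, and over all 8789 genes 1.02.

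The selectins were rare. *Sele* had 10 UMIs in the normoxia EC-like cells, in 4 cells, of which 6 UMIs lay in 3 arterial-like cells and 4 in 1 venous-like cell. The hypoxia EC-like cells had no *Sele* UMI, which allows up to 1.42 CPM, against 2.72 CPM in normoxia. The interval of the ratio ran from 0 to 0.78. This rests on the cells kept: with up to 10% mitochondrial UMIs allowed, hypoxia EC-like cells did hold *Sele*, at a ratio of 0.20 with an interval (0.0045 to 1.38) that spanned 1, and with finer clustering (resolution 3) the interval ran from 0 to 2.53. After thinning of every cell to 1000 UMIs the interval ran from 0 to 67.1. No *Sele* UMI was found in either library among EC-like cells in which immediate-early transcripts made up at most 1% of UMIs. Aerocyte-like and general capillary-like EC had no *Sele* UMI in either library.

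*Selp* had 49 UMIs in 13 normoxia EC-like cells. Venous-like EC held 40 of them, in 9 of 56 cells (16.1%, interval 7.62 to 28.3), at 122.7 CPM. Arterial-like EC held 8, in 3 of 28 cells, at 53.0 CPM. The remaining UMI was in a general capillary-like cell, and aerocyte-like EC had none. A single venous-like cell carried 22 of the *Selp* UMIs, so the level rests on few cells. In the hypoxia library *Selp* had 2 UMIs in EC-like cells, 1 in an aerocyte-like cell and 1 in the *Ntrk2*-led cluster, and the ratio to normoxia was 0.07 (0.0084 to 0.27). The 21 hypoxia venous-like cells had none, which allows up to 32.7 CPM, and the interval of their ratio to normoxia ran from 0 to 0.34. Among cells in which immediate-early transcripts made up at most 1% of UMIs, *Selp* had 5 UMIs in normoxia and 2 in hypoxia, and the interval of the ratio, 0.03 to 2.09, spanned 1. In venous-like cells of that kind it had 4 and 0 UMIs, and the interval, 0 to 2.16, spanned 1. When EC-like cells were gated one by one on markers the ratio was 0.46 (0.048 to 2.21), and after thinning to 1000 UMIs it was 0 (0 to 1.19), so that both intervals spanned 1 as well. No *Sele* or *Selp* UMI was found in any cell outside the EC-like clusters, including the 18 platelet-like cells of the normoxia library, in which a count of 0 allows up to 79.7 CPM.

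*Vcam1* divided the endothelium most sharply of the genes with many UMIs. In the normoxia library it stood at 1227 CPM in venous-like EC (400 UMIs), 205.2 in arterial-like EC (31 UMIs), 11.7 in general capillary-like EC (22 UMIs) and 1.41 in aerocyte-like EC (1 UMI). The venous level was 5.98 times the arterial (interval 4.15 to 8.92) and 104.8 times the general capillary level (68.3 to 169). *Vcam1* was found in 73.2% of venous-like and 1.31% of general capillary-like cells. After thinning of every cell to 1000 UMIs the shares were 41.1% and 0.98%.

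The level was also highest in venous-like EC in the hypoxia library, in which the other subtypes had few UMIs. Venous-like EC had 392.6 CPM of *Vcam1* (36 UMIs, in 7 of 21 cells), 0.32 times normoxia (0.22 to 0.45). Arterial-like EC had 2 UMIs, 0.11 times normoxia (0.013 to 0.45; 0.31, 0.03 to 1.92, in cells with at most 1% immediate-early UMIs), general capillary-like EC 1 and aerocyte-like EC none. The *Ntrk2*-led cluster, which has no subtype name, had 12 *Vcam1* UMIs in 2 cells, at 11.8 CPM. Over all EC-like cells *Vcam1* was 126.1 CPM in the normoxia library and 24.7 in the other, a ratio of 0.20 (0.14 to 0.26). Pooled over 10 clusters with 10 or more cells from both libraries, it was 0.30, and in cells with at most 1% immediate-early UMIs it was also 0.30 (0.19 to 0.48). In the venous-like cells of that kind, 18 in normoxia and 16 in hypoxia, *Vcam1* was 684 and 192.3 CPM, a ratio of 0.28 (0.14 to 0.51), close to that without the limit. Few cells carried much of it: 3 cells held 36% of the venous *Vcam1* UMIs in normoxia and 86.1% in hypoxia.

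*Icam1*, by contrast, was measured across the endothelium. In the normoxia library it was 1077 CPM in venous-like EC (351 UMIs), 727 in aerocyte-like EC (514), 322 in general capillary-like EC (605) and 271.4 in arterial-like EC (41). The aerocyte level was 2.26 times the general capillary level (2.00 to 2.54), while the arterial and general capillary levels did not differ beyond counting error (ratio 0.84, interval 0.60 to 1.16). The aerocyte level rests on the *Dpysl5*-led cluster, with 505 of the 514 UMIs. The shallow *Scgb1a1*-led cluster held 9. In the hypoxia library the levels were 510.7 in aerocyte-like (175 UMIs), 414.4 in venous-like (38), 88.1 in general capillary-like (28) and 70.2 in arterial-like EC (6). The aerocyte and venous levels there did not differ beyond counting error (ratio 1.23, 0.86 to 1.80).

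Over all cells of a subtype the hypoxia level of *Icam1* was lower in each of the 4, but by unequal amounts. The ratio was 0.70 in aerocyte-like EC (0.59 to 0.84), 0.38 in venous-like EC (0.27 to 0.54), 0.27 in general capillary-like EC (0.18 to 0.40) and 0.26 in arterial-like EC (0.09 to 0.61). The intervals of the aerocyte and general capillary ratios did not overlap over all cells. They did overlap in cells with at most 1% immediate-early UMIs, at 0.59 to 1.04 and 0.15 to 0.73. The general capillary-like cells of the libraries also lay mostly in different clusters. Within the *Lpl*- and *Hey1*-led cluster the ratio was 0.58 (0.07 to 2.18, from 73 and 2 UMIs). Within the *Gm26917*-led cluster it was 0.27 (0.04 to 1.17, from 7 and 3 UMIs), and the *Gm26870*-led cluster had 0 and 3 UMIs. Each of these intervals spanned 1. The aerocyte level in hypoxia was 5.80 times the general capillary level (3.88 to 8.98). Over all EC-like cells *Icam1* stood at 440.4 in normoxia and 149.5 in hypoxia, 0.34 times (0.30 to 0.38), in 41.8% and 15.6% of cells. Pooled within the 10 clusters with 10 or more cells from both libraries the ratio was 0.58. The general capillary-like clusters led by *Gm16486*, by *Ier3* and by *Milr1* were not among these. The *Dpysl5*-led aerocyte-like cluster, with 505 and 173 UMIs, had a ratio of 0.73 (0.61 to 0.87). The *Ntrk2*-led cluster held 1018110 of the 2106507 UMIs of hypoxia EC-like cells, and *Icam1* stood at 57.0 in it (58 UMIs).

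*Icam1* and the immediate-early genes were high in the same clusters among the general capillary-like clusters of the normoxia library. Where immediate-early UMIs made up 34260.2 to 46680.4 CPM, in the clusters led by *Milr1*, by *Ier3* and by *Gm16486*, *Icam1* stood at 668, 339 and 598. Where they made up 5060.03 to 7457 CPM, it stood at 99.96 (*Lpl*- and *Hey1*-led, 73 UMIs), 75.8 (*Gm26917*-led, 7 UMIs) and 0 (*Gm26870*-led), and at 324 in 15 cells led by interferon-induced genes such as *Rsad2* and *Ifit1*. The 0 is from 12 cells of a cluster with a median of 876 UMIs, too few to show a low level. In EC-like cells with at most 1% immediate-early UMIs, 456 in normoxia and 527 in hypoxia, *Icam1* was 175.4 and 83.5 CPM, a ratio of 0.48 (0.38 to 0.59). In aerocyte-like cells of that kind it was 407.7 and 320.8, with an interval (0.59 to 1.04) that spanned 1. In venous-like cells of that kind it was 228 and 147.9, a ratio of 0.65 (0.27 to 1.43), so that the venous level in normoxia lay under the aerocyte level there. In arterial-like cells the ratio was 0.79 (0.21 to 2.94), from 6 UMIs in either library, and in general capillary-like cells it was 0.35 (0.15 to 0.73). In normoxia the aerocyte level in these cells was 4.61 times the general capillary level, over 1.5 times the ratio without the limit. Whether dissociation contributed to the *Icam1* difference between the libraries was not tested.

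**Figure D2:**
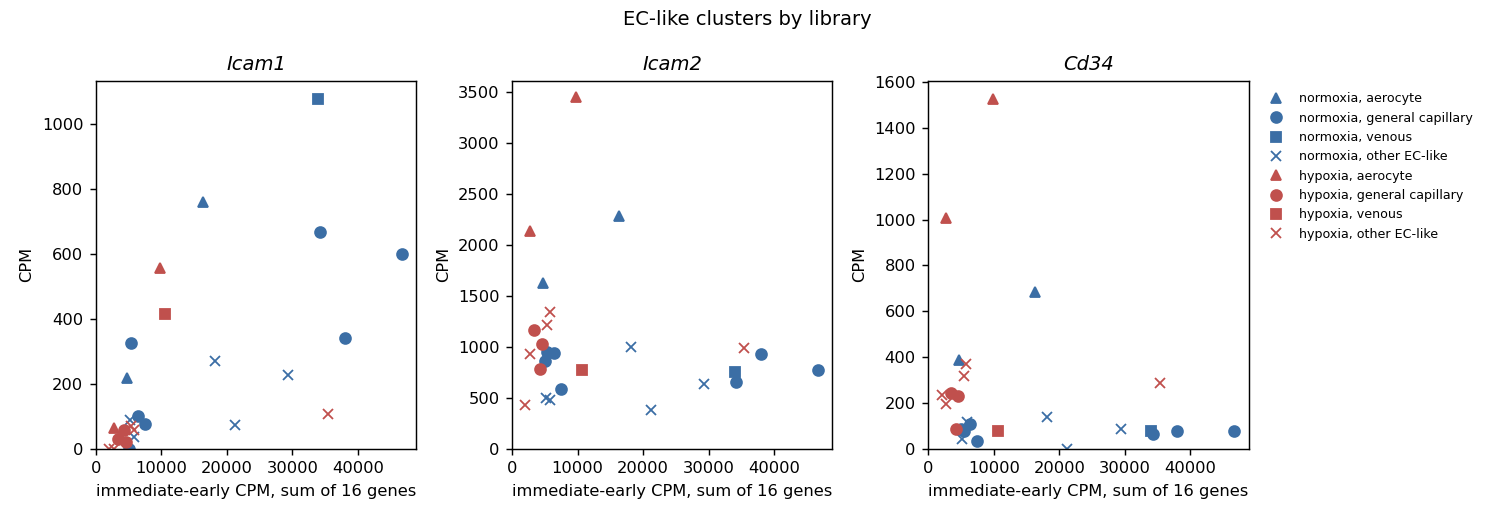
CPM of *Icam1*, *Icam2* and *Cd34* against the immediate-early sum in CPM in each EC-like cluster with at least 10 cells of a library (blue normoxia, red hypoxia; shapes give the subtype). In normoxia *Icam1* reached 1077 in the venous-like and 668 in a general capillary-like cluster at high immediate-early levels, and 758.5 in an aerocyte-like cluster at a lower one (16305.7), and the highest *Icam2* and *Cd34* values were in aerocyte-like clusters.

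*Icam2* was found in 79.7% of normoxia and 73.1% of hypoxia EC-like cells. Aerocyte-like EC carried 2250 CPM in normoxia and 3335 in hypoxia, against 859.6 and 1158 in general capillary-like, 999 and 1217 in arterial-like and 754.8 and 774 in venous-like EC. The aerocyte level was 2.62 times the general capillary level in normoxia (2.44 to 2.81) and 2.88 times in hypoxia (2.56 to 3.25). The hypoxia over normoxia ratio was 1.48 in aerocyte-like EC (1.37 to 1.60) and 1.35 in general capillary-like EC (1.20 to 1.51). In venous-like EC it was 1.03, with an interval (0.78 to 1.34) that spanned 1. Over all EC-like cells it was 1.42 (1.35 to 1.49), and 1.17 (1.11 to 1.25) in cells with at most 1% immediate-early UMIs. In general capillary-like cells of that kind it was 1.15, with an interval (0.99 to 1.32) that spanned 1.

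*Pecam1* was found in 86.6% of normoxia and 83.0% of hypoxia EC-like cells, and its level differed least between the libraries: 1308 and 1468 CPM, a ratio of 1.12 (1.07 to 1.18). Over EC-like cells with at most 1% immediate-early UMIs the ratio was 1.03 (0.97 to 1.09). After thinning to 1000 UMIs it was 1.07 (0.98 to 1.18), and both intervals spanned 1. General capillary-like EC had 1287 and 1290, a ratio of 1.00 (0.90 to 1.11). Aerocyte-like EC had 1655 and 2308, a ratio of 1.39 (1.27 to 1.53). It was 1.45 (1.32 to 1.59) in their *Dpysl5*-led cluster and 0.88 (0.57 to 1.35) in the shallow *Scgb1a1*-led one. Arterial-like and venous-like EC gave 1.02 and 1.17, with intervals that spanned 1. The aerocyte level exceeded the general capillary level by 1.29 times in normoxia (1.20 to 1.38) and 1.79 times in hypoxia (1.59 to 2.02).

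*Cd34* was the member with the strongest aerocyte bias. In the normoxia library it stood at 664.8 CPM in aerocyte-like EC (470 UMIs), 139.0 in arterial-like (21), 86.2 in general capillary-like (162) and 79.8 in venous-like EC (26), of which the last pair did not differ beyond counting error (ratio 0.93, 0.59 to 1.41). The aerocyte level was 7.71 times the general capillary level (6.43 to 9.27). In the hypoxia library the order was 1480 in aerocyte-like (507 UMIs), 315.9 in arterial-like (27), 204.5 in general capillary-like (65) and 76.3 in venous-like EC (7). *Cd34* was detected in 82.4% of normoxia aerocyte-like cells and 19.5% of general capillary-like cells. After thinning to 1000 UMIs, which left out 12 aerocyte-like cells, the first share was 44.2% and the second 7.25%.

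*Cd34* was higher in the hypoxia library in aerocyte-like EC (ratio 2.23, 1.96 to 2.53), general capillary-like EC (2.37, 1.75 to 3.18) and arterial-like EC (2.27, 1.24 to 4.23), the last at 1.42 (0.73 to 2.86) in cells with at most 1% immediate-early UMIs. Among general capillary-like clusters the ratio was 0.81 in the *Lpl*- and *Hey1*-led cluster (0.16 to 2.45, from 79 and 3 UMIs). It was 7.04 in the *Gm26917*-led cluster (2.21 to 35.8, from 3 and 34 UMIs) and 2.81 in the *Gm26870*-led cluster (0.46 to 115.7, from 1 and 24 UMIs). These intervals overlapped. In venous-like EC the ratio was 0.96 (0.35 to 2.26), from 26 and 7 UMIs, an interval that holds the ratios of the other subtypes. The 195 hypoxia cells of the *Ntrk2*-led cluster stood at 369.3, 1.81 times the general capillary-like cells of that library (1.39 to 2.39). Over all EC-like cells *Cd34* was 201.5 and 499.9 CPM, a ratio of 2.48 (2.26 to 2.73), and 2.04 (1.80 to 2.31) in cells with at most 1% immediate-early UMIs.

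**Figure D3:**
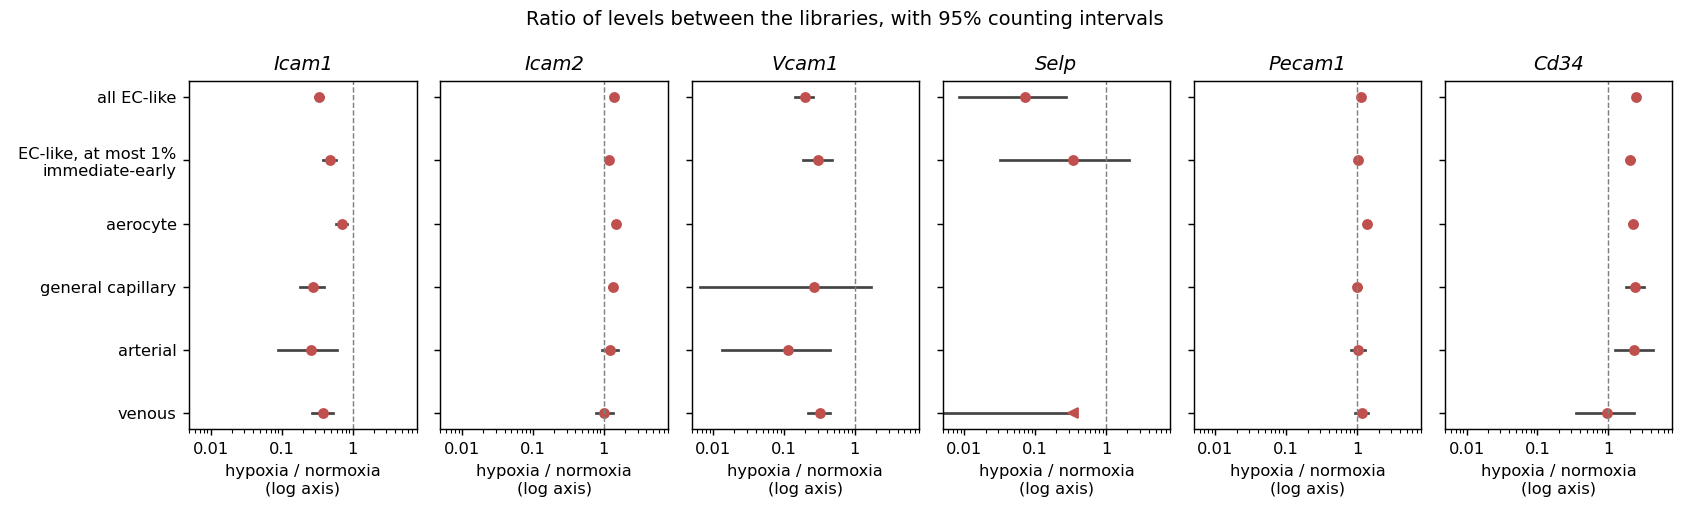
Hypoxia over normoxia ratio of each adhesion transcript (log axis) in all EC-like cells, in EC-like cells with at most 1% immediate-early UMIs and in the 4 subtypes, with 95% counting intervals; a triangle marks the upper bound where hypoxia had no UMI, and subtypes with fewer than 20 UMIs are left out. All *Icam1* points lie left of 1 (0.26 to 0.70), and *Cd34* lies right of 1 except in venous-like EC (0.96).

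Of the 4 members with at least 50 UMIs in aerocyte-like and general capillary-like EC of normoxia, 3 (*Icam1*, *Icam2* and *Cd34*) were over 1.5 times higher in the former, as were 15.1% of 6638 genes, and none was lower, against 20.5%. *Vcam1*, with 23 UMIs, was under that count. Between venous-like and general capillary-like EC of normoxia, 2 of 5 members (*Icam1* and *Vcam1*) were higher, against 9.5% of 6125 genes, and none was lower, against 21.1%.

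Outside the endothelium, *Vcam1* and *Icam1* had sources of their own. Fibroblast-like cells held 50.8% of all *Vcam1* UMIs of the normoxia library, more than the 47.7% of the EC-like cells, at 589.8 CPM (493 UMIs, in 108 of 192 cells). The level was 802 in a *Scara5*- and *Pi16*-led cluster (14 cells), 633 in a cluster led by *Fat3* and *Adrb3* that also had *Wnt2* among its leading genes (83 cells) and 192.8 in a shallow cluster led by *Ces1d* and *Mfap4* (95 cells). In the hypoxia library fibroblast-like cells had 14 *Vcam1* UMIs in 35 cells, 0.28 times the normoxia level (0.15 to 0.48). That class was made up differently: 31 of its 35 hypoxia cells were in the *Ces1d*-led cluster, in which the levels were 192.8 in normoxia (25 UMIs) and 101 in hypoxia (6 UMIs).

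*Icam1* stood at 595.1 CPM in the 46 alveolar type 1 (AT1)-like cells of normoxia (67 UMIs, in 11 cells), above the mean of the EC-like cells, and at 384.9 in 16 cells led by *Hhip* and *Aspn*. The latter were given no class name, as their leading genes spoke for another class than their best-scoring marker list. Immediate-early UMIs summed to 48678 CPM in them and 11681 in the AT1-like cells, against 23539.8 in EC-like cells. The part of dissociation in these *Icam1* values was not tested. In those 16 cells *Icam2*, *Pecam1* and *Cd34* had no UMI and the 12 EC markers summed to 162 CPM, so EC transcripts were nearly absent there. Fibroblast-like cells had 148.4 and pericyte-like cells 103.5. The 5 normoxia alveolar type 2-like cells held 22 *Icam1* UMIs.

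*Cd34* outside the endothelium was mostly in fibroblast-like cells, at 104.1 in normoxia (87 UMIs) and 213.3 in hypoxia (18 UMIs). Within them it was highest in the *Scara5*- and *Pi16*-led cluster, genes that mark fibroblasts of the vessel adventitia, at 283.6 (35 UMIs in 14 cells), against 75.5 in the *Fat3*-led and 61.7 in the *Ces1d*-led cluster. EC markers summed to 625 CPM in fibroblast-like cells of normoxia and 2548 in those of hypoxia. The part of free RNA and mixed barcodes in these *Cd34* values was not tested.

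*Icam2* and *Pecam1* were counted outside the endothelium in classes that also held EC transcripts. In normoxia fibroblast-like cells they were 31.1 and 33.5 CPM where EC markers summed to 625, and in hypoxia 201.5 and 248.9 where these summed to 2548. Pericyte-like cells had 239.6 and 343.1 at an EC marker sum of 5577, AT1-like cells 213.2 and 257.6 at 5134, and platelet-like cells 451.8 and 664.4 at 9753. A shallow group of 49 normoxia cells led by *Mrpl52* and *Plvap* was left without a class name and so counted outside EC. It held 32 of the 159 *Icam2* and 55 of the 220 *Pecam1* UMIs counted there. Its EC marker sum was 16183, against 17303 in normoxia EC-like cells. The values did not keep step with that sum throughout: the 7 hypoxia pericyte-like cells had 8 *Icam2* and 10 *Pecam1* UMIs of 9502, at an EC marker sum of 5894. The share of cells with a *Pecam1* UMI was 8.85% in normoxia fibroblast-like cells (median 3410 UMIs) and 86.6% in EC-like cells (median 3608). The part that free RNA and mixed barcodes had in the *Icam2* and *Pecam1* values outside EC was not tested. In the 19 leukocyte-like cells of normoxia, *Icam1* had 9 UMIs, *Icam2* 16 and *Pecam1* 20.

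**Figure D4:**
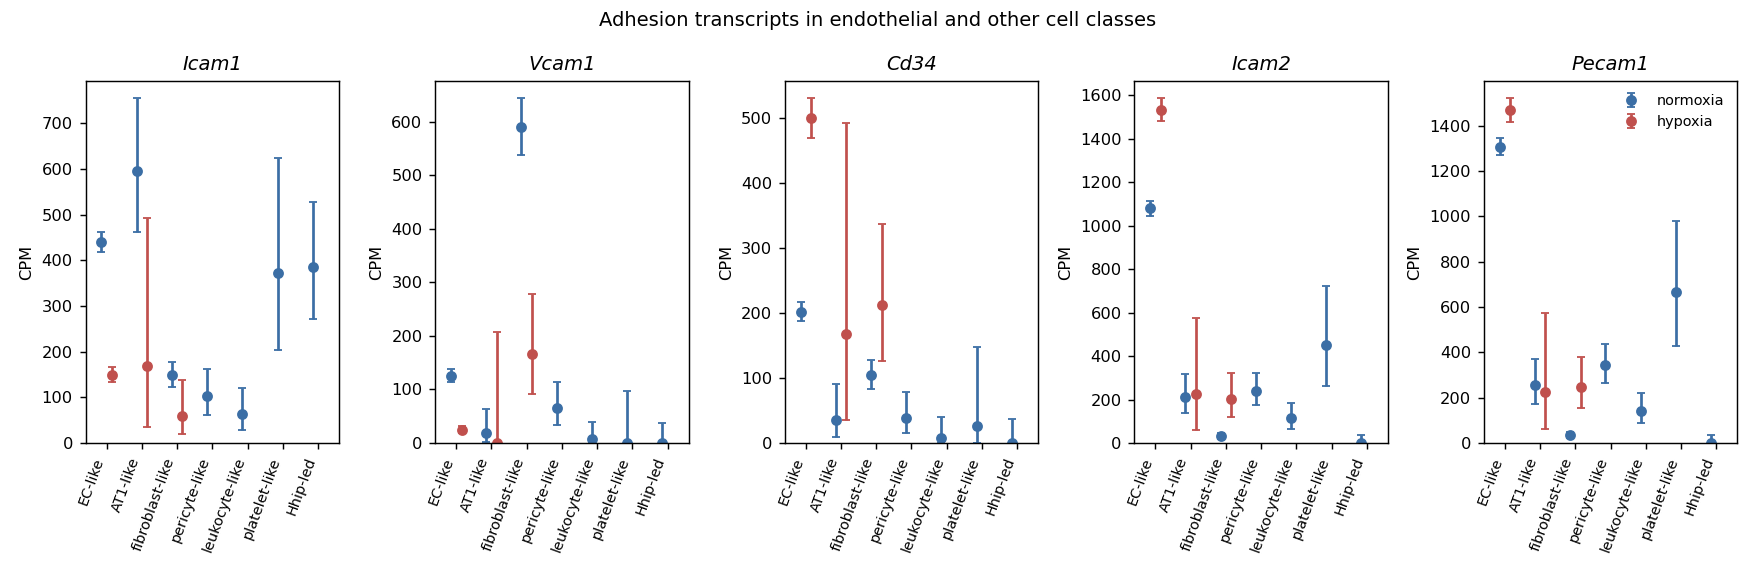
CPM in EC-like and other cell classes with at least 10 cells in a library (blue normoxia, red hypoxia; 95% Poisson intervals). *Vcam1* is highest in normoxia fibroblast-like cells (589.8) and *Icam1* in normoxia AT1-like cells (595.1), while *Icam2* and *Pecam1* are highest in EC-like cells.

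**Figure D5:**
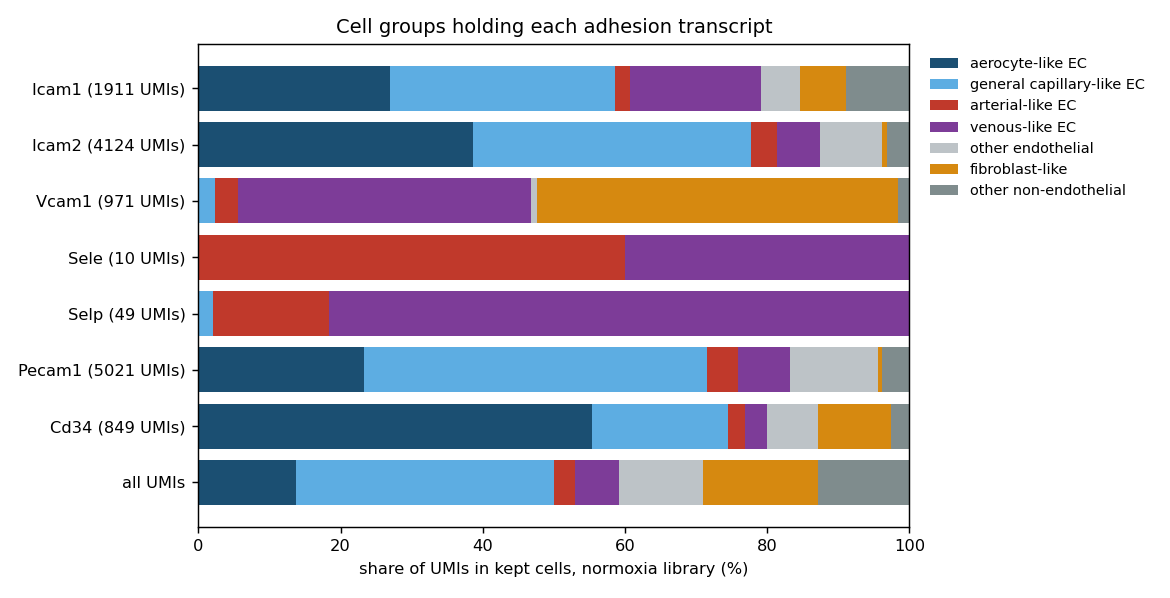
Share of each transcript's UMIs held by each cell group in the normoxia library, with the share of all UMIs in the lowest bar. Venous-like EC held 81.6% of *Selp* and 41.2% of *Vcam1* with 6.3% of all UMIs, and aerocyte-like EC held 55.4% of *Cd34* with 13.7%. The part labelled other non-endothelial includes 49 unnamed *Mrpl52*-led cells with an EC marker sum of 16183 CPM.

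The rarer transcripts were found in cells that also held the commoner ones. Of the 60 normoxia EC-like cells with a *Vcam1* UMI, 52 also had *Icam1* (86.7%), and of the 13 with *Selp*, 11 had *Vcam1* and 10 had *Icam1*. All 4 cells with *Sele* had both *Icam1* and *Vcam1* UMIs, and 3 had *Selp*. Among all EC-like cells 41.8% had *Icam1*, and among venous-like cells 80.4%. Within venous-like EC, 36 of 41 *Vcam1*-positive cells had *Icam1*. In aerocyte-like EC 87 of 92 *Icam1*-positive cells had *Cd34*. Deep cells show more genes of any kind, and no depth correction was made for these pairs.

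Among other genes of leukocyte traffic in EC-like cells, the adhesion receptors were mixed. Of 6 further endothelial receptors with at least 50 UMIs (of 12 listed), 3 were over 1.5 times lower in the hypoxia library and none was higher, where 9.76% of all 8789 genes were lower and 7.92% higher. The hyaluronan receptor *Cd44* had a ratio of 0.20 (0.11 to 0.34), the membrane-bound chemokine *Cx3cl1* 0.27 (0.18 to 0.40) and the scavenger receptor *Stab1* 0.55 (0.46 to 0.66). Of the sialomucins related to *Cd34*, *Emcn* was 306.7 and 618 CPM, a ratio of 2.02 (1.86 to 2.18), while *Podxl* gave 1.29. *Emcn* is also among the EC markers used to name cells.

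Of 11 junctional and transmigration genes counted, 10 lay within 1.5 times, among them VE-cadherin (*Cdh5*, 1.10), *Esam* (1.11) and *F11r* (1.44). *Cdh5* is also among the EC markers used to name cells. None of the 11 was higher by over 1.5 times, against 7.92% of all genes. The 1 lower gene, against 9.76% of all genes, was *Plvap*, at 1013 in normoxia and 148.1 in hypoxia (0.15, 0.13 to 0.16). *Plvap* encodes the diaphragm protein of fenestrae and caveolae and is among the general capillary markers used to name cells. In general capillary-like EC, a group named partly by it, *Plvap* was 1341 and 167.

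Of 11 NF-kB and cytokine pathway genes counted, 5 were over 1.5 times lower, against 9.76% of all genes, and none higher, against 7.92%: *Nfkbiz* (0.18), *Birc3* (0.45), *Nfkbia* (0.51), *Irf1* (0.58) and *Tnfaip3* (0.56), most of them feedback targets of the pathway. The subunits *Nfkb1* (0.86) and *Rela* (1.08) and the receptors *Tnfrsf1a* (1.05) and *Il1r1* (1.30) lay within 1.5 times. Of the 3 genes listed as endothelial inhibitors of induction, *Klf4* was lower (0.60, 0.57 to 0.63), *Klf2* was 0.73 and *Nos3* was higher (1.81, 1.41 to 2.34). Several of these genes are also induced by dissociation, and the part of that was not tested.

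Of 7 Weibel-Palade body genes counted, 3 were lower, against 9.76% of all genes. These were the cargo *Angpt2* (0.28), the granule GTPase *Rab27a* (0.37) and the membrane protein *Cd63* (0.58), which travels with P-selectin. *Vwf* (1.07) and *Edn1* (1.19) were not lower, and *Vwf* is also among the EC and venous markers used to name cells. Of 5 genes of selectin ligand synthesis counted, only *Chst2* passed 1.5 (0.66, 0.46 to 0.94), where 9.76% of all genes were lower. Of the leukocyte ligands and integrins only *Itgb1* (1.16) and *Cd24a* (0.80) were counted. The 8 pan-leukocyte transcripts summed to 8.44 and 9.02 CPM.

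The genes whose levels were most like each member's were sought over 15 groups of class or subtype by library with at least 20 cells, by Pearson's r of log2(CPM + 10) among 8044 genes. The groups share 2 libraries and differ in depth, so the values are descriptive. *Icam2* was most like *Ly6a* (0.98), *Ly6e* (0.97) and *Pecam1* (0.96), and *Pecam1* most like *S1pr1*, *Myct1* and *Ly6e* (each 0.98). *Vcam1* was most like *Tshz2* (0.92), *Emp3* (0.90) and *Nuak1* (0.89), and *Cd34* most like *Mxra7* (0.89), *AC163018.1* (0.88) and *Mgll* (0.86). *Icam1* had lower values, *Tfg* (0.85), *Scamp3* (0.82) and *Slc25a16* (0.82), and 0.46 with the immediate-early sum. *Sele* and *Selp* had too few UMIs.

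The cells left out by the limits on genes and mitochondrial UMIs were not without these transcripts. In the normoxia library they held 853 *Icam1*, 242 *Vcam1* and 36 *Selp* UMIs in 875 cells, and no *Sele* UMI. In the hypoxia library they held 81 *Icam1*, 21 *Vcam1*, 1 *Selp* and 1 *Sele* UMIs in 120 cells.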

How the data were processed

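Mouse lung cells depleted of CD45 and CD326 cells were sequenced as 1 normoxia and 1 hypoxia library. The deposited values are unnormalized UMI counts, which the authors made with Cell Ranger (6.1.2 per the file headers) against mm10. The study's text names other versions, and gives 4000 and 6000 as the upper limit on genes.

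Counts were scaled to 10000 per cell, log-transformed and clustered over both libraries without batch correction. The settings in scanpy 1.11.5 were 2000 variable genes chosen across the libraries, less any of the 7 genes, 30 components, 15 neighbours and Leiden resolution 2. Classes needed at least 3 markers found in 25% of cells, and a subtype needed a marker level 1.5 times that of the next. Doublets were limited only by the upper limit on genes. Ratios have exact conditional binomial intervals, levels Poisson and shares Clopper-Pearson intervals at 95%, and none of these covers more than counting error. Where no UMI was found, the level of 3 counts is the limit. The code was tested on simulated data. Of each gene list, genes with at least 50 UMIs were counted and up to 4 past 1.5 named. *Tnfaip3* and list genes within 1.5 were named after their values were seen. Members and lists were chosen with earlier results of these data known. Positions are from GENCODE vM21.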

Additional observations from a re-analysis of the deposited data

How the results depend on the processing

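No paired analysis was possible because there is 1 library on either side. Where they could be formed, the library ratios over all EC-like cells and the normoxia aerocyte over general capillary ratios kept their side of 1. This held under the alternatives run, which were not run within subtypes apart from the limit on immediate-early UMIs. Some intervals spanned 1 under an alternative, those of *Sele*, *Selp* and *Pecam1* among the library ratios and of *Vcam1* and *Selp* among the subtype ratios. With cells of up to 6000 genes, the hypoxia over normoxia ratio of *Icam2* was 1.52 and the normoxia aerocyte over general capillary ratio of *Icam1* 2.83. With up to 10% mitochondrial UMIs the latter ratio of *Icam2* was 2.84. At resolution 1 it was 1.79 for *Icam1*, 2.97 for *Icam2* and 1.41 for *Pecam1*. With cells gated on markers the library ratio was 0.41 for *Icam1*, 0.27 for *Vcam1* and 0.46 for *Selp*, and the subtype ratio of *Icam1* 1.78. With means over cells the library ratio was 0.29 for *Icam1* and 1.34 for *Icam2*, and the subtype ratio of *Icam1* 1.89. After thinning to 1000 UMIs the library ratio was 0.26 for *Icam1* and 0 for *Selp*, and the subtype ratio of *Vcam1* 0. Within clusters the library ratio was 0.58 for *Icam1*, 0.30 for *Vcam1* and 1.28 for *Pecam1*. Without clusters held by 1 library it was 0.42 for *Icam1*, 1.20 for *Pecam1* and 2.15 for *Cd34*. In cells with at most 1% immediate-early UMIs, an alternative chosen after seeing the data, it was 0.48 for *Icam1*, 1.17 for *Icam2*, 0.30 for *Vcam1*, 0.34 for *Selp*, 1.03 for *Pecam1* and 2.04 for *Cd34*, and the subtype ratio was 4.61 for *Icam1* and 0 for *Vcam1*. Within subtypes that limit moved 4 library ratios across 1, each with an interval that spanned 1: *Icam2* in venous-like EC to 0.92, *Pecam1* in general capillary-like EC to 0.94 and in arterial-like EC to 0.90, and *Vcam1* in general capillary-like EC to 1.45 (2 and 1 UMIs). Resolution 3, members among the variable genes, median-ratio scaling, cells with no leukocyte or platelet UMI and leaving out the EC-like cluster led by fibroblast transcripts (also added later) left each ratio within its counting interval. The causes were not tested.

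The selectin values rest on 4 and 13 normoxia cells, and the arterial-like and venous-like groups of hypoxia on 17 and 21, so a count of 0 there allows up to 35.1 or 32.7 CPM. Intervals cover counting error and not the spread between animals.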
